A study of Mus musculus with 15 samples.

Results

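The *Ikzf1*-silent leukemia lines were defined by the *Ikzf1* mRNA level itself: 3 of 15 lines had less than 10 CPM (the reads of a gene scaled to the total of its library), and the other 12 lines formed the *Ikzf1*-expressing class. The series held 2 genotypes, both on the FVB/NJ strain. The E2a-/- lines (SKO, n = 7) lacked E2A, and the E2a-/-LefF/F LckCre+ lines (DKO, n = 8) also carried floxed *Lef1* alleles, with Cre under the *Lck* promoter from the DN2 thymocyte stage onward, so that all 15 lines shared the loss of E2A. The floxed segment encodes the LEF1 DNA binding domain. Each line was grown out of thymic cells of a moribund mouse, was left untreated and was profiled as 1 RNA-sequencing library, so that a line is the unit of replication and its spread includes differences between independent leukemias. The silent class held 2 DKO lines (DKO102.4 and DKO170.2) and 1 SKO line (SKO132), against 6 expressing lines of each genotype. Because 1 silent line was SKO, the main fit of all genes used genotype as a covariate and was repeated with SKO132 left out. Correlations and counts of genes without overlap used no genotype term.

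*Ikzf1* encodes Ikaros, a zinc finger transcription factor of lymphocytes that binds DNA motifs with a GGGAA core and recruits the NuRD chromatin remodeling complex. Ikaros restrains Notch target genes during T cell development, it acts as a tumor suppressor in mouse and human T cell leukemia, and its loss has been linked to redistribution of Polycomb repressive complex 2. Deletions and splice variants of the gene occur in mouse T cell leukemias, and an mRNA level does not show which protein isoforms a line makes.

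The annotated starts of *Ikzf1* are shown first because the classes rest on transcription from this gene. RefSeq lists 2 starts on the plus strand of chromosome 11 (GRCm38.p6), at chr11:11685675-11685974 and chr11:11689927-11690226 when taken as 250 bases before to 50 bases after the start. Capitals mark the Ikaros core GGGAA or its reverse complement TTCCC.
Ikzf1 upstream start: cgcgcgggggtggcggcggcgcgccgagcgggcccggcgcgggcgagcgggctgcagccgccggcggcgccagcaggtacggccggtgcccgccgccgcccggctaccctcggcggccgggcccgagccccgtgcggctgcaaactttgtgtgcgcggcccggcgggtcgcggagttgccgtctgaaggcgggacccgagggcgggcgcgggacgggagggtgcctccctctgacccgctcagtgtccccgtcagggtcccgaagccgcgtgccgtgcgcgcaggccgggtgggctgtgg
Ikzf1 downstream start: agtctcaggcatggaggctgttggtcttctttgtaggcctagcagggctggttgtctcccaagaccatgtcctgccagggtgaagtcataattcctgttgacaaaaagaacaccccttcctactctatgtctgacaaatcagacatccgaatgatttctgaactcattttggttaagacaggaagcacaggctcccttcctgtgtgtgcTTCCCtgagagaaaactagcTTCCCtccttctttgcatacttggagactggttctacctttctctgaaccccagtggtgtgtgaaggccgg
The upstream window had a GC content of 81.3% with 52 CpG dinucleotides and no GGGAA on either strand. The downstream window had a GC content of 49.0% with 2 CpG dinucleotides and 2 GGGAA matches. GGGAA on either strand occurred in 62.7% of the 32851 promoter windows of the same length, so its presence did not set a window apart. The deposited values are per gene and do not separate the transcripts of the 2 starts.

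*Ikzf1* was at 2.98 CPM in DKO102.4 (61 reads, exact Poisson 95% interval 2.28 to 3.83), 0.128 CPM in DKO170.2 (2 reads, 0.0155 to 0.461) and 3.86 CPM in SKO132 (70 reads, 3.01 to 4.88). The value of DKO170.2 was below the 0.191 CPM that 3 reads give in this library and was not told apart from 0. Among the 12 expressing lines *Ikzf1* ranged from 80.6 CPM to 1257 CPM with a median of 641.5 CPM. The nearest lines on either side of the 10 CPM limit were SKO132 at 3.86 CPM and DKO192.3 at 80.6 CPM, which differed by 20.9-fold, and the next line was SKO95 at 252 CPM. No line lay near the limit. The expressing lines had 530 ± 413 CPM (SD, n = 6) in the DKO genotype and 644 ± 206 CPM (SD, n = 6) in the SKO genotype, which overlapped. These levels chose the classes and were not tested. In bulk RNA, a smaller share of cells that express *Ikzf1* and less *Ikzf1* RNA per cell cannot be told apart.

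**Figure D1:**
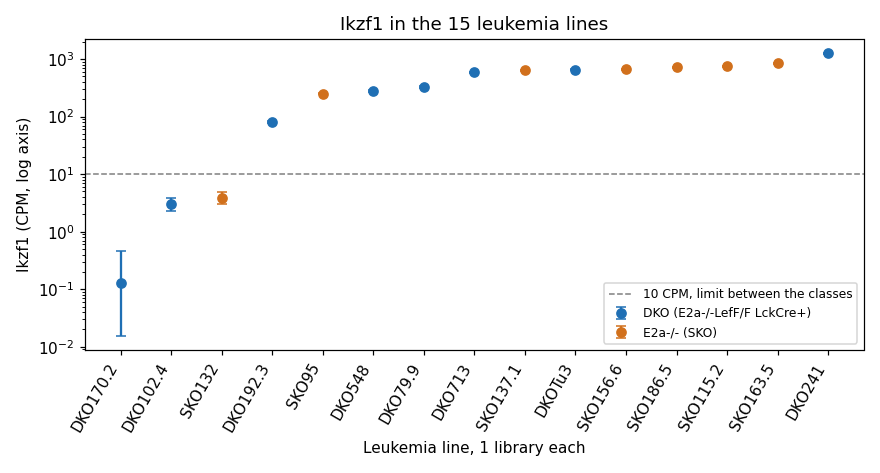
*Ikzf1* in each of the 15 lines in CPM on a log axis, ordered by level, with exact Poisson 95% intervals for counting error and the 10 CPM limit as a dashed line. DKO170.2, DKO102.4 and SKO132 lie between 0.128 and 3.86 CPM, and the other 12 lines lie at 80.6 CPM or above.

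The genes around *Ikzf1* were not lower as a group in the silent lines. *Ikzf1* lies at chromosome 11, 11585006 to 11672929 on the plus strand, in the table's own coordinates, which are those of another assembly than GRCm38. The table lists 8 other genes within 2 Mb of it, and each of them overlapped between the classes (1.37% of all genes did not). The nearest was *Fignl1*, encoding an AAA ATPase of homologous recombination, 14505 bp beyond the 3′ end of *Ikzf1*. *Fignl1* was at 58.5 CPM in DKO102.4, 115.1 CPM in DKO170.2 and 132 CPM in SKO132, against 28.01 CPM to 206 CPM (median 125 CPM) in the expressing lines. The silent lines lay inside that range, and the log2 difference was -0.02 ± 0.41 (SE; adjusted p = 0.992, limma). *Gm11998*, a gene model of unknown role, had 0 reads in both silent DKO lines, against 0.140 to 3.85 CPM in the expressing lines, and was at 3.25 CPM in SKO132 (adjusted p = 0.664 with all lines and 0.224 without SKO132, limma). The other neighbors, among them *Ddc*, *Grb10* and *Zpbp*, had adjusted p-values from 0.492 to 0.981. Over 842 chromosome 11 genes that averaged 5 CPM or more, the median deviation of the silent lines from the autosomes was -0.06 to -0.02 on the log2 scale, within the -0.09 to 0.45 of the expressing lines.

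The silent lines expressed the T lineage genes, at lower levels in SKO132 for the CD3 chains, *Lck* and *Cd2*. The summed level of 10 T lineage genes was 4194 to 6980 CPM in the silent lines and 4241 to 7846 CPM in the expressing lines. SKO132 was the lowest of all 15 lines in this sum. *Cd3d*, a signaling chain of the T cell receptor complex, was at 530 CPM in DKO102.4, 658 CPM in DKO170.2 and 47.0 CPM in SKO132, against 290 to 613 CPM in the expressing lines. *Cd2*, encoding an adhesion receptor, was at 5.82 CPM in DKO102.4, 6.51 CPM in DKO170.2 and 0.496 CPM in SKO132, against 3.68 to 203 CPM. *Tcf7*, encoding TCF1, was at 2034 to 3133 CPM in the silent lines and at 800 to 3624 CPM in the others. The summed levels of the listed B cell genes (3 of 10), myeloid genes (3 of 10), NK and ILC genes (7 of 11), erythroid genes (2 of 10) and stromal and epithelial genes (3 of 10) all lay within the range of the expressing lines. For the B cell genes, these sums were 1.17 to 7.08 CPM in the silent lines and 0.560 to 7.21 CPM in the others. For the myeloid genes they were 10.7 to 14.4 CPM and 8.98 to 18.9 CPM. The NK and ILC genes, mostly *Gzma*, summed to 292 to 828.9 CPM against 160 to 1352 CPM. The erythroid genes summed to 2.49 to 8.94 CPM against 0.172 to 51.9 CPM, and the stromal and epithelial genes, mostly *Col1a2*, to 219 to 399 CPM against 56.6 to 1024 CPM.

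A shift with transcript length has to stand beside the results that follow. Genes with long exon sequence (7886 bases or more) were compared with genes with short exon sequence (2674 bases or less) among 9575 genes that averaged 5 CPM or more. In DKO170.2, the median log2 deviation of long genes minus that of short genes was -1.07. DKO102.4 had -0.28, SKO132 had 0.20, and the expressing lines had -0.39 to 0.38. DKO170.2 thus stood outside all other lines, while DKO102.4 and SKO132 did not. A fit after removing a smooth dependence on exon length in each line (the length correction) was added, and its values are given with genes below. The part of the shift in the results without such a value was not tested.

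**Figure D2:**
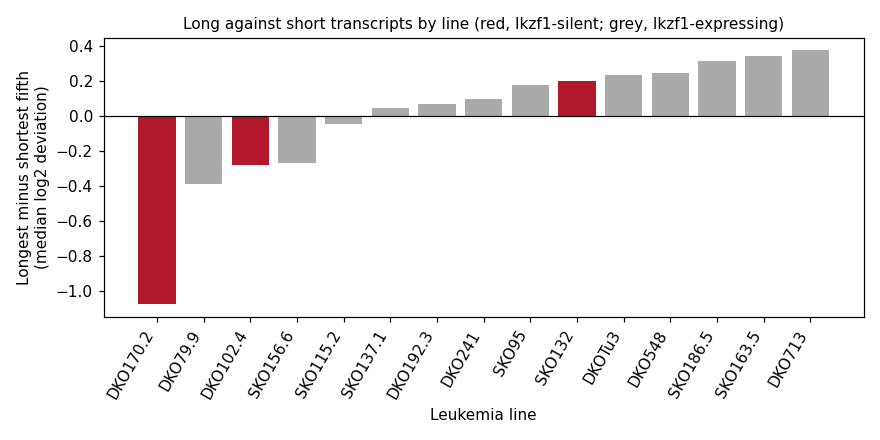
Median log2 deviation of genes of 7886 exon bases or more minus that of genes of 2674 or less, in each line (bars; red, *Ikzf1*-silent; grey, *Ikzf1*-expressing). DKO170.2 has -1.07 and the expressing lines lie between -0.39 and 0.38.

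With all 15 lines, no gene differed between silent and expressing lines at the study's threshold of an adjusted p under 0.01 (limma on log2(CPM + 1), 0 of 12544 genes, 0.0%), while 1680 genes (13.4%) had an unadjusted p under 0.05. With single lines left out, the unadjusted count ranged from 934 (without DKO170.2) to 2265 (without SKO132). It was 2185 without DKO102.4 and 1394 after the length correction. The edgeR quasi-likelihood test on the recovered reads called 1 gene (0.00797%), and DESeq2 called 79 genes (0.63%), 28 higher and 51 lower. At an adjusted p under 0.05, edgeR called 1 gene and DESeq2 called 249 genes (1.99%). At an adjusted p under 0.05, limma called 2 genes (0.0159%), *Ubn1* as lower and *Spsb2* as higher in the silent lines. SKO156.6 and SKO186.5 had the most similar profiles of all pairs of lines (Spearman's rho = 0.987 across genes), and the labels do not say whether they are related. With these lines averaged as 1, limma called 0 genes at 0.05 (1685 had an unadjusted p under 0.05), and *Ubn1* and *Spsb2* both had an adjusted p of 0.0737. All other fits that hold both lines, among them those without SKO132, count them as 2 lines. In a simulation with 200 genes changed 4-fold in the same 3 lines, limma recovered 59% with 3 false calls and DESeq2 recovered 71% with 36 false calls. The rate of recovery or of false calls in the leukemia lines themselves was not tested.

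*Ubn1* (ENSMUSG00000039473, chromosome 16), a subunit of the HIRA complex that deposits histone H3.3, was at 84.4 CPM in DKO102.4, 110 CPM in DKO170.2 and 141 CPM in SKO132. The expressing lines had 154 to 238 CPM, with a median of 186.0 CPM. All 3 silent lines lay below all 12 others. The log2 difference was -0.74 ± 0.11 (SE; adjusted p = 0.0457, limma) with all lines and -0.85 ± 0.13 (SE; adjusted p = 0.0290) without SKO132, and *Ubn1* was the only gene called at 0.05 in both fits. After the length correction the log2 difference was -0.59 with all lines (adjusted p = 0.215). The call at 0.05 was also lost with edgeR (adjusted p = 0.0982), median-of-ratios scaling (0.0670), TMM scaling (0.0726) and a minimum mean of 1 CPM (0.0887), and was made with DESeq2 (9.27e-07). With single lines left out the limma adjusted p ranged from 0.0290 to 0.114 and was under 0.05 only without SKO132 or without DKO102.4. *Ubn1* exons span 8272 bases, above the 7886 bases that set the long genes apart.

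*Spsb2* (ENSMUSG00000038451, chromosome 6), a SOCS box protein that serves as a substrate adaptor of ubiquitin ligases, was close to the detection limit. It was at 1.61 CPM in DKO102.4 (33 reads), 0.957 CPM in DKO170.2 (15 reads) and 1.32 CPM in SKO132 (24 reads). In the expressing lines it was at 0 to 0.249 CPM with a median of 0 CPM. All 3 silent lines were higher, by 1.11 ± 0.15 (SE; adjusted p = 0.0358, limma) on the log2(CPM + 1) scale. The adjusted p was 0.0589 without SKO132, 0.230 after the length correction (log2 difference 0.88), 0.214 with edgeR and 0.154 with DESeq2. With single lines left out it ranged from 0.0242 to 0.0976 (limma) and was under 0.05 only without DKO102.4, SKO137.1, DKO241 or DKOTu3.

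The promoter of *Ubn1* is shown because it was the gene called with and without SKO132, and that of *Zrsr1* because this gene was at 0 in both silent DKO lines. The windows are chr16:5049807-5050106 and chr11:22971755-22972054 (GRCm38.p6, RefSeq, plus strand), with GGGAA or TTCCC in capitals.
Ubn1: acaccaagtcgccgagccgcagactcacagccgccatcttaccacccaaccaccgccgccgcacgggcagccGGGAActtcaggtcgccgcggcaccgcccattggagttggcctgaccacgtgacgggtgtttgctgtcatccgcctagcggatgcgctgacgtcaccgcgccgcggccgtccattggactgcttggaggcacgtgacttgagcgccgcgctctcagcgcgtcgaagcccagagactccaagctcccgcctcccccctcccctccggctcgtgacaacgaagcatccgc
Zrsr1: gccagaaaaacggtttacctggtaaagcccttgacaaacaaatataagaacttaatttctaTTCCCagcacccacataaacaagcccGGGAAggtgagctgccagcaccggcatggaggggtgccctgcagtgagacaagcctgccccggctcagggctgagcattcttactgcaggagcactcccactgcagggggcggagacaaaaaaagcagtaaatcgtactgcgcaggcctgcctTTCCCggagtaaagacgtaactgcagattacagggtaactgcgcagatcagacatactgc
The *Ubn1* window held 1 match and the *Zrsr1* window held 3, and a match is a description of the sequence only.

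When SKO132 was left out, 3 genes (0.0239%) passed an adjusted p under 0.01, *Nsg1* and *Mb21d2* as higher and *Zrsr1* as lower in DKO102.4 and DKO170.2. At 0.05 there were 8 genes (0.0638%), 4 higher (0.0319%) and 4 lower (0.0319%), with *Cdk5rap1* and *Trbv3* also higher and *Ubn1*, *Dnmt3a* and *Efr3a* also lower. With the 8 DKO lines alone, limma called no gene at 0.01 (0 of 12544, with 1806 genes at an unadjusted p under 0.05; edgeR also called 0) and 1 gene at 0.05, *Nsg1* (0.00797%). Leaving out the single line SKO132 thus changed which genes were called.

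*Zrsr1* (ENSMUSG00000044068, chromosome 11) is an intronless, imprinted relative of the splicing factor gene *Zrsr2*. It had 0 reads in DKO102.4 and 0 reads in DKO170.2, whereas the 6 expressing DKO lines had 7.01 to 20.4 CPM, with a median of 10.2 CPM. Counted against the 0.191 CPM that 3 reads give in the shallower silent library, *Zrsr1* was at least 53.1-fold lower. SKO132 did not share this pattern, with 11.1 CPM (202 reads) against 6.54 to 11.4 CPM in the other SKO lines. The log2 difference without SKO132 was -3.64 ± 0.38 (SE; adjusted p = 0.00128, limma) and the adjusted p was 0.000629 with edgeR and 0.00144 after the length correction. The difference of the silent DKO lines from the expressing DKO lines was also compared with that of SKO132 from the other SKO lines, a test in which SKO132 is a single line assumed to vary like the others and which called 0.813% of genes. For *Zrsr1* these differences were unequal by -3.95 ± 0.62 (SE; adjusted p = 0.00448, limma). *Zrsr2*, with which reads could be shared, was at 38.5 and 42.8 CPM in the silent DKO lines and at 32.4 to 41.0 CPM in the expressing DKO lines. *Commd1*, whose intron holds *Zrsr1*, was at 47.2 and 100 CPM in the silent DKO lines, against 43.5 to 89.7 CPM.

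*Nsg1* (ENSMUSG00000029126, chromosome 5), encoding an endosomal protein best known from neurons, was at 4.11 CPM in DKO102.4 (84 reads) and 3.76 CPM in DKO170.2 (59 reads). It was at 0 CPM in SKO132 and at no more than 0.210 CPM in the expressing lines. The 2 silent DKO lines were thus above all other lines. Against the expressing lines, without SKO132, the difference was 2.26 ± 0.17 (SE; adjusted p = 6.26e-05, limma) on the log2(CPM + 1) scale, with adjusted p-values of 0.000175 after the length correction and 0.131 with edgeR. *Mb21d2* (ENSMUSG00000051065, chromosome 16) was at 5.72 CPM in DKO102.4 (117 reads) and 1.85 CPM in DKO170.2 (29 reads). It had 0 reads in all 12 expressing lines and 2 reads in SKO132. The lower of the 2 silent DKO lines was at least 2.99-fold above the 3-read level of the shallowest expressing library, with a log2(CPM + 1) difference of 2.13 ± 0.25 (SE; adjusted p = 0.00328, limma without SKO132). The adjusted p was 0.00876 after the length correction and 0.131 with edgeR. Both genes were below 6 CPM in every line.

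*Cdk5rap1*, encoding a mitochondrial tRNA modifying enzyme, was at 43.5 and 52.8 CPM in the silent DKO lines and 23.3 CPM in SKO132, against 14.3 to 25.4 CPM in the expressing lines. The 2 DKO lines lay above all others and SKO132 lay inside the range. The log2 difference without SKO132 was 1.35 ± 0.20 (SE; adjusted p = 0.0282, limma), with adjusted p-values of 0.0242 after the length correction and 0.0227 with edgeR. *Efr3a*, which anchors a phosphatidylinositol kinase at the plasma membrane, was at 60.7 and 54.4 CPM in the silent DKO lines and 136.7 CPM in SKO132, against 92.7 to 155 CPM, and its log2 difference without SKO132 went from -0.98 (adjusted p = 0.0407, limma) to -0.53 (adjusted p = 0.203) with the length correction. *Trbv3*, a T cell receptor beta variable segment whose level depends on the clone, was at 13.4 CPM in DKO102.4 and 177 CPM in DKO170.2, against 0.110 CPM in SKO132 and 0 to 4.90 CPM in the expressing lines. Its adjusted p without SKO132 was 0.0424, and 0.0571 after the length correction (limma).

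*Dnmt3a* (ENSMUSG00000020661, chromosome 12), the de novo DNA methyltransferase, was low in all 3 silent lines, though to different extents. It was at 86.8 CPM in DKO102.4, 92.2 CPM in DKO170.2 and 0.276 CPM in SKO132 (5 reads). The expressing lines had 170 to 240 CPM, with a median of 186.2 CPM. The 2 silent DKO lines were at 49.1% of the median of the expressing DKO lines, and SKO132 had 0.140% of the median level among its 6 SKO counterparts. The log2 difference was -1.14 ± 0.15 (SE; adjusted p = 0.0122, limma) without SKO132, and -0.46 (adjusted p = 0.428) after the length correction, with exons of 16642 bases. The call among the silent DKO lines thus depended on the length correction. With all lines it was -3.37 ± 0.79 (SE; adjusted p = 0.166), and SKO132, as a single line, differed from the other SKO lines by more than the silent from the expressing DKO lines (adjusted p = 2.32e-08).

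*Crebbp*, encoding the histone acetyltransferase CBP and named after its values were seen, had a similar distribution. It was at 29.7 CPM in DKO102.4, 16.1 CPM in DKO170.2 and 0.221 CPM in SKO132 (4 reads), against 50.6 to 98.7 CPM in the expressing lines. All 3 silent lines were lower than all 12 others, with a log2 difference of -3.22 ± 0.59 (SE; adjusted p = 0.115, limma). SKO132 stood apart here as well (adjusted p = 0.000212 for the inequality, with SKO132 a single line). Without SKO132 the log2 difference was -1.66 (adjusted p = 0.0511), and -1.10 after the length correction (adjusted p = 0.0342).

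**Figure D3:**
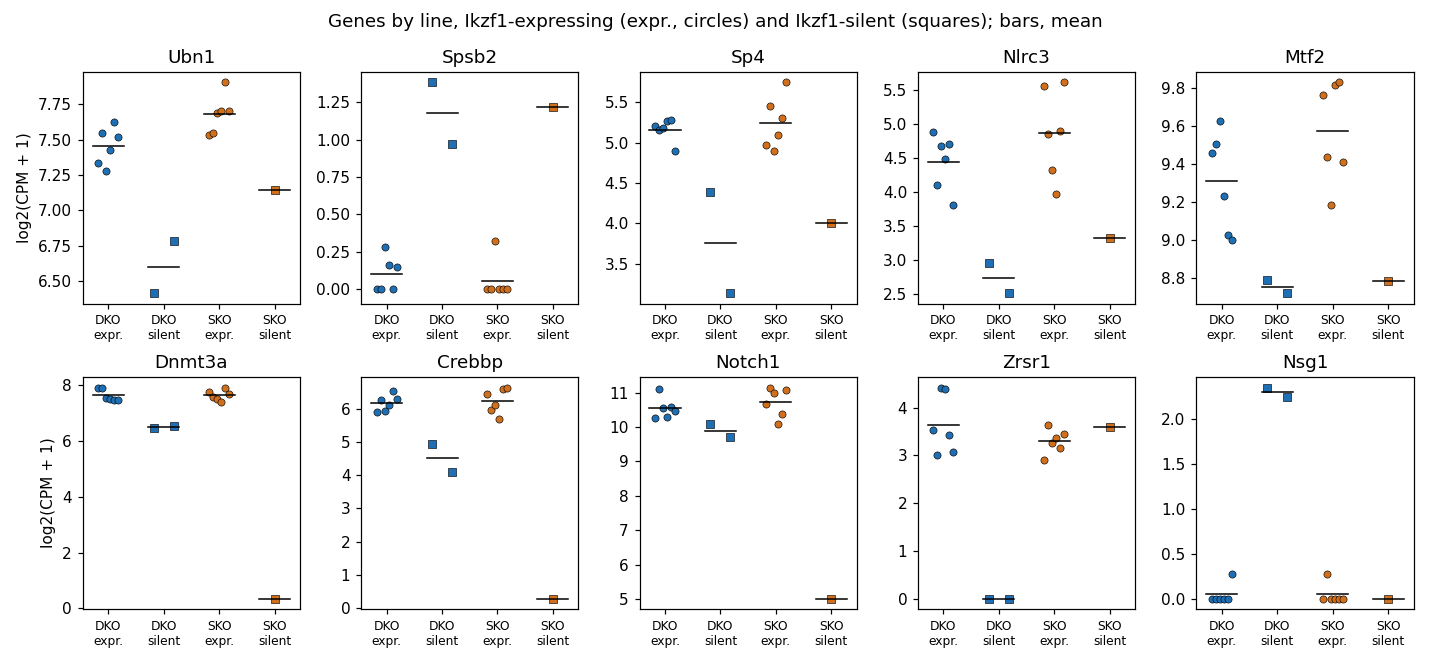
log2(CPM + 1) of 10 genes in each line (points; circles, *Ikzf1*-expressing; squares, *Ikzf1*-silent; blue, DKO; orange, SKO) with the mean of each group as a bar. For *Ubn1*, *Spsb2*, *Sp4*, *Nlrc3*, *Mtf2*, *Dnmt3a*, *Crebbp* and *Notch1* the 3 silent lines lie beyond the 12 others, whereas *Zrsr1* and *Nsg1* differ in the 2 silent DKO lines and not in SKO132.

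Counting lines rather than fitting them, 172 of 12544 genes (1.37%) had all 3 silent lines beyond all 12 others, 101 higher (0.805%) and 71 lower (0.566%). None of these was switched on or off in the sense of under 1 CPM in one class and at least 10 CPM in the other. After the length correction the count was 127 genes, 62 higher and 65 lower. The genes that were higher had a median exon length of 2761 bases, those that were lower 7060 bases, and all genes 4346 bases. Leaving out SKO132 raised the count to 821, leaving out DKO102.4 to 703 and leaving out DKO170.2 to 293. Fewer lines had to lie apart in each case, and what made these counts differ from each other was not tested.

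The gene with the highest correlation with *Ikzf1* was *Sp4*, a zinc finger factor of the SP family (Pearson's r = 0.89 over 15 lines, on the log2(CPM + 1) scale). It was at 19.9 CPM in DKO102.4, 7.79 CPM in DKO170.2 and 15 CPM in SKO132, against 28.7 to 52.6 CPM (median 35.6 CPM). All 3 silent lines were lower, with a log2 difference of -1.34 ± 0.22 (SE; adjusted p = 0.102, limma). It was -1.28 after the length correction. The next were *Smchd1*, which acts in silencing of the inactive X chromosome (r = 0.865), *Megf9* (r = 0.853), *E2f3*, a cell cycle factor (r = 0.85), and *Sipa1l1* (r = 0.847). The lowest correlations were those of *Eif3g*, a translation initiation factor subunit (r = -0.898), *Krtcap2*, of the oligosaccharyltransferase (r = -0.891), *Tsr2*, a ribosomal protein chaperone (r = -0.884), *Cd81*, a tetraspanin (r = -0.873), and *Cct5*, a chaperonin subunit (r = -0.866). *Eif3g* was at 214 to 248 CPM in the silent lines and 137.4 to 185 CPM in the others. These correlations were computed over lines that include the 3 chosen for their *Ikzf1* level and over libraries that share the length shift. *Smchd1* exons span 19982 bases, and its log2 difference went from -0.82 to -0.37 with the length correction, or from -0.75 to 0.03 without SKO132. *Eif3g* exons span 1984 bases, and its difference went from 0.50 to 0.30.

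Only *Nlrc3*, encoding an inhibitory NOD-like receptor of T cells, was under 10 CPM in all silent lines and at least 10 CPM in all others. It was at 6.75 CPM in DKO102.4, 4.72 CPM in DKO170.2 and 8.99 CPM in SKO132, against 13.04 to 47.7 CPM. Its log2 difference of -1.65 ± 0.32 (SE) had an adjusted p of 0.115 with limma and 8.79e-05 with DESeq2, and it was -1.53 after the length correction. Other genes without overlap, chosen after their values were seen, were higher in the silent lines. *Emid1*, encoding an extracellular matrix protein, was at 36.1, 38.9 and 34.1 CPM in DKO102.4, DKO170.2 and SKO132, against 0 to 18.04 CPM (median 1.05 CPM). *Mgll*, encoding monoacylglycerol lipase, was at 5.62, 11.2 and 9.32 CPM in the same order, against 0 to 4.94 CPM. *Ifih1*, encoding the RNA sensor MDA5, was at 9.19, 9.13 and 12.8 CPM, against 0 to 6.64 CPM. The adjusted p-values of *Emid1*, *Mgll* and *Ifih1* were 0.166, 0.134 and 0.166 with limma.

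The other Ikaros family members did not replace or follow *Ikzf1* in a uniform way. *Ikzf2*, encoding Helios, was at 91.8 CPM in DKO102.4, 20.5 CPM in DKO170.2 and 248 CPM in SKO132, against 32.0 to 372 CPM (median 99.2 CPM). *Ikzf3*, encoding Aiolos, was at 266, 74.5 and 222 CPM in DKO102.4, DKO170.2 and SKO132, against 3.41 to 492 CPM (median 283 CPM). For *Ikzf3* the lowest expressing line was SKO95, which stood apart at 3.41 CPM, and DKO170.2 lay below all other expressing lines (118 CPM or more), whereas DKO102.4 and SKO132 lay among them. For *Ikzf2*, DKO170.2 lay below the expressing lines. *Ikzf4* and *Ikzf5* also overlapped. Of these 4 genes, 0 were called at 0.05 (limma, edgeR and DESeq2; 0 at an unadjusted p under 0.05), with adjusted p-values from 0.765 to 0.986.

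Among 17 listed members of the Ikaros partner complexes (NuRD, SIN3, CtBP and BRG1), 0 were called at 0.05 by limma or edgeR, 6 had an unadjusted p under 0.05 (13.4% of all genes) and DESeq2 called *Mbd2* and *Sin3a* (1.99% of all genes). Their median log2 difference was 0.06 beside 0.02 over all genes. *Mbd2*, the methyl-CpG-binding subunit of NuRD, was the 1 member without overlap, beside 1.37% of all genes. It was at 112 CPM in DKO102.4, 97.2 CPM in DKO170.2 and 148 CPM in SKO132, against 57.6 to 90.5 CPM (log2 difference 0.65, adjusted p = 0.180, limma, and 0.56 after the length correction). In the 2 silent DKO lines alone, 5 of 17 members lay beyond all expressing lines, as did 6.54% of all genes, with *Mbd2* and *Mbd3* higher and *Chd4*, *Mta3* and *Sin3a* lower. *Chd4*, the NuRD ATPase, was at 600 and 414 CPM in the silent DKO lines and 1013 CPM in SKO132, against 646 to 1075 CPM. The log2 difference without SKO132 was -0.59 (adjusted p = 0.129, limma), and -0.31 after the length correction. *Mbd3*, also of NuRD, was at 218 and 305 CPM in the silent DKO lines and 132 CPM in SKO132, against 147 to 216 CPM, with a difference of 0.50 (adjusted p = 0.129) that became 0.21.

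Of 8 Polycomb repressive complex 2 genes, 0 were called at 0.05 by limma or edgeR, 3 had an unadjusted p under 0.05 (13.4% of all genes), and DESeq2 called *Mtf2* (adjusted p = 0.00749, with 1.99% of all genes called). The median log2 difference was -0.12. *Mtf2*, an accessory subunit that recruits the complex to CpG islands, was at 441 CPM in DKO102.4, 420 CPM in DKO170.2 and 440 CPM in SKO132. The expressing lines had 510 to 908 CPM, with a median of 697 CPM. The 3 silent lines lay together and below all others, with a log2 difference of -0.64 ± 0.16 (SE; adjusted p = 0.175, limma) that was -0.58 after the length correction. *Mtf2* was the 1 member without overlap, beside 1.37% of all genes. *Ezh2*, the catalytic subunit, was at 321 and 361 CPM in the silent DKO lines, against 316 to 391 CPM in the expressing DKO lines. It was at 162 CPM in SKO132, against 358 to 511 CPM in the other SKO lines, and SKO132, a single line, differed by more than the silent DKO lines (adjusted p = 0.00981).

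In the Notch pathway list, 4 of 17 genes (*Notch1*, *Notch3*, *Dtx1* and *Lef1*) were called for an unequal difference of SKO132 and the silent DKO lines, beside 0.813% of all genes. Of the 17 genes, 0 were called at 0.05 in the class comparison by limma or edgeR, 6 had an unadjusted p under 0.05 (13.4% of all genes) and DESeq2 called *Notch3* (1.99% of all genes). A negative difference was found for 16 of 17 of these genes and for 47.7% of all genes, with a median of -1.10 against 0.02 over all genes. This median was -2.21 for SKO132 against the other SKO lines and -0.18 for the silent against the expressing DKO lines. *Notch1* was at 1089 CPM in DKO102.4, 830 CPM in DKO170.2 and 31.3 CPM in SKO132, against 1091 to 2266 CPM (median 1514 CPM). The silent DKO lines lay just below the expressing lines, and SKO132 had 1.70% of the median level among the expressing SKO lines. *Notch1* exons span 14232 bases, and without SKO132 its log2 difference went from -0.65 to -0.06 with the length correction (adjusted p = 0.974, limma). The inequality for *Notch1* was 5.07 ± 0.46 (SE; adjusted p = 6.94e-05, limma). *Dtx1*, a Notch target, was at 193, 120 and 0.221 CPM in DKO102.4, DKO170.2 and SKO132, against 72.05 to 866 CPM in the expressing lines. *Ptcra*, encoding the pre-T cell receptor alpha chain, was at 54.9, 87.6 and 0.165 CPM, against 8.91 to 104 CPM. For both genes the silent DKO lines lay inside the range of the expressing lines and SKO132 lay below it. *Lef1* was at 59.0 CPM in SKO132, against 668 to 1558 CPM in the other SKO lines and 103 to 210 CPM in the 6 expressing DKO lines. The DKO lines carried floxed *Lef1* alleles, so the unequal difference of this gene cannot be told apart from their genotype.

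Over all genes, the differences of the 2 genotypes were nearly uncorrelated. Across 9706 genes that averaged 5 CPM or more, the difference between silent and expressing DKO lines and that between SKO132 and the other SKO lines had a Pearson's r of -0.023 and a Spearman's rho of -0.08, as a description over genes that are not independent. The 2 contrasts share no line. A log2 difference of at least 1 in the same direction was found for 68 genes that were lower and 64 that were higher in both, out of 403 lower and 182 higher in the DKO lines and 731 lower and 759 higher in SKO132. Another 131 genes differed by at least 1 in opposite directions. The inequality of the DKO and SKO132 differences was called at an adjusted p under 0.01 for 51 genes (0.407%) in each direction. At an adjusted p under 0.05 it was called for 2.18% of genes, 0.821% higher and 1.36% lower, and 19.6% had an unadjusted p under 0.05. SKO132 is a single line, assumed in this test to vary like the others.

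**Figure D4:**
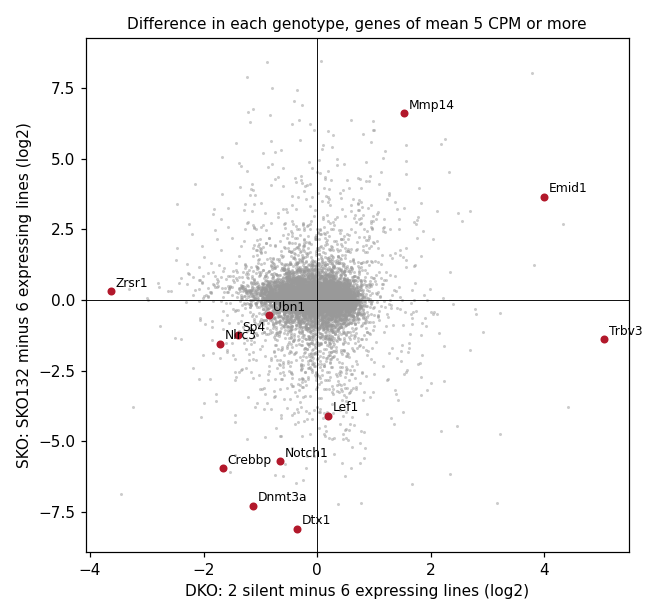
log2 difference of the 2 silent from the 6 expressing DKO lines (horizontal) and of SKO132 from the 6 expressing SKO lines (vertical) for each gene that averaged 5 CPM or more (grey), with named genes in red. The points show no common slope (Pearson's r of -0.023), and *Dnmt3a*, *Crebbp* and *Notch1* lie far lower on the SKO132 axis than on the DKO axis.

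The remaining lists gave 0 calls each at an adjusted p under 0.05 with all lines by limma or edgeR, with 0 to 6 members per list at an unadjusted p under 0.05 (13.4% of all genes). DESeq2 called *Notch3*, *Lmo1*, *Ccnd1*, *Cdkn2a* and *Itga4* in them (1.99% of all genes). Among 28 T lineage surface and receptor genes, the median log2 difference was -1.86 in SKO132 and 0.25 in the silent DKO lines. *Cd3d*, *Cd3g* and *Zap70* were called for the inequality of SKO132 and the silent DKO lines at 0.01, as were 0.813% of all genes. *Zap70*, the kinase of the T cell receptor, was at 35.9 CPM in SKO132, against 135 to 196 CPM in the other SKO lines. It was at 207 CPM in DKO102.4 and 182 CPM in DKO170.2, inside the 160 to 232 CPM of the expressing DKO lines. Of 18 lymphocyte genes described as Ikaros-regulated, 0 had classes without overlap, beside 1.37% of all genes. Their median log2 difference was -0.15 with all lines, 0.235 in the silent DKO lines and -1.10 in SKO132. Of 14 V(D)J recombination genes, 0 lay apart in all 3 silent lines, beside 1.37% of all genes. *Prkdc*, the DNA-dependent protein kinase, was lower in the 2 silent DKO lines than in all 12 expressing lines, at 55.6 and 45.4 CPM against 70.6 to 151 CPM. Its log2 difference without SKO132 was -1.06 (adjusted p = 0.112, limma), and -0.52 after the length correction. Among 18 survival and cell cycle genes, the p53 targets *Bax* and *Bbc3* lay higher in DKO102.4 and DKO170.2 than in all expressing lines. *Bax* was at 155 and 146 CPM, against 61.6 to 131 CPM, and *Bbc3* at 18.33 and 17.42 CPM, against 1.327 to 13.6 CPM. SKO132 had 60.3 CPM of *Bax*, below that range, and 2.096 CPM of *Bbc3*, inside it. Neither gene was called without SKO132 (adjusted p = 0.1378 for *Bax* and 0.1647 for *Bbc3*, limma). With the length correction, the log2 difference in that fit went from 0.82 to 0.45 for *Bax* (adjusted p = 0.44). For *Bbc3* it went from 1.4906 to 1.222 (adjusted p = 0.352). *Bax* and *Bbc3* stood beside 821 of 12544 genes (6.54%) with the 2 silent DKO lines beyond all 12 expressing lines, 371 higher (2.96%) and 450 lower (3.59%). The higher genes had a median exon length of 2784 bases and the lower genes 7919 bases. After the length correction the counts were 301 higher and 387 lower. The medians of the IL-7 and IL-2 receptor, glucose and energy supply, adhesion, and proximal antigen receptor signaling lists were -0.39, -0.20, 0.05 and -0.42 with all lines. In the same order they were -0.05, -0.26, -0.09 and -0.03 in the silent DKO lines and -0.805, -0.004, -0.315 and -0.81 in SKO132. With all lines, those of the T lineage transcription factors (19 genes), progenitor and oncogenic factors (4 of 18 listed) and survival and cell cycle genes were -0.09, 0.17 and -0.06. These medians were -0.14, -0.125 and 0.10 in the silent DKO lines and -0.14, 0.37 and -0.33 in SKO132.

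**Figure D5:**
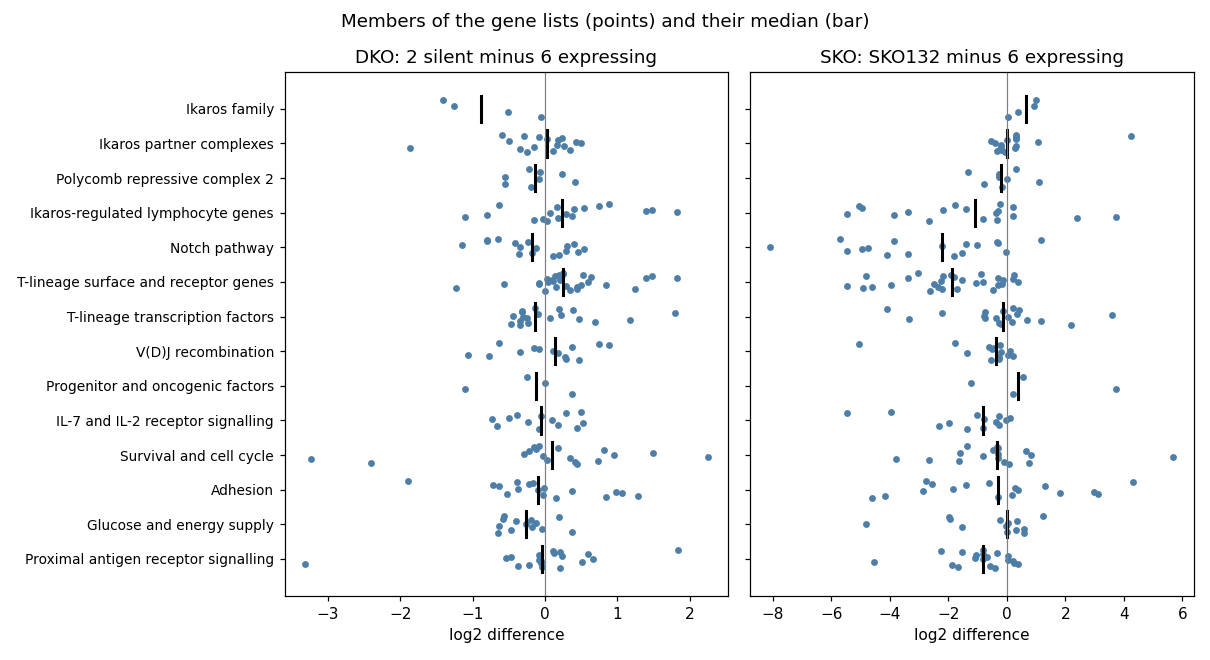
log2 difference of every listed member of 14 gene lists (points) with the list median (bar), for the silent against the expressing DKO lines (left) and SKO132 against the other SKO lines (right), on separate horizontal scales. The Notch pathway median is -0.18 on the left and -2.21 on the right, and that of the T lineage surface and receptor genes is 0.25 and -1.86.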

How the data were processed

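Values of 15 lines were analyzed from 1 table, in which the deposited CPM were computed by the authors from reads trimmed with Trimmomatic (version 0.33), aligned to mm10 with TopHat2 (version 2.1.0), counted with HTSeq (version 0.6.1) and normalized with edgeR. Of its 12545 genes, 12172 matched a symbol and a GENCODE vM21 exon length. Its coordinates match GRCm38 starts for only 190 genes and are given as listed. All values of each line were whole multiples of the value of 1 read within 0.02, and these recovered reads, 4847970 to 21681586 per line, were used for count tests. A level of 3 reads equals 0.138 to 0.618 CPM, and intervals cover counting error only. The shallowest line, DKO79.9, is the least precise.

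Classes were read from *Ikzf1* at 10 CPM. Members and lists were chosen with earlier results of these data known. All genes were tested on log2(CPM + 1) with limma (version 3.58.1, in R version 4.3.3), a variance trend and genotype as covariate, without a filter on low values, and Benjamini-Hochberg adjustment ran over the 12544 genes other than *Ikzf1*. Differences are on the log2(value + 1) scale, which understates changes of low genes. Alternatives included edgeR (version 4.0.16), DESeq2 (version 1.42.0), other pseudocounts and scalings, each line left out and a correction for exon length added after seeing the data. Scripts were tested on simulated data with 200 genes changed 4-fold, where edgeR recovered 59% with 2 false calls. An exact permutation test within genotype (Python version 3.11.15, scipy version 1.17.1) was run for named genes and is not reported, since most were chosen by class position. Named were *Ikzf1*, up to 10 genes per direction called without overlap at a mean of 5 CPM or more, genes called with and without SKO132, called list members, the Ikaros family, genes within 2 Mb of *Ikzf1*, the 5 highest and 5 lowest correlations among genes with a mean of 5 CPM or more, and on or off genes. Other genes were named after their values were seen. Labels give no separate cultures of a line, so p-values measure the spread between lines.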

Additional observations from a re-analysis of the deposited data

Results flagged for a closer look

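The difference between silent and expressing lines was flagged as unequal between the silent DKO lines and SKO132 for some of the 16 genes examined (limma interaction). On the log2 scale, as DKO minus SKO, it was 6.15 for *Dnmt3a*, 5.07 for *Notch1*, 4.3 for *Crebbp*, 3.05 for *Notch3*, 2.30 for *Nsg1* and -3.95 for *Zrsr1*. The SKO side of each rests on SKO132 alone. These genes were called without SKO132 or named after their values were seen, so they do not show how common an unequal difference was.

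Single expressing lines stood far from the other 5 of their genotype in 7 of 34 groups examined (Dixon's test at 95%, which flags about 1 group in 20 by chance). *Ikzf3* was low in SKO95 at 3.41 CPM. *Notch1* was high in DKO192.3 at 2200 CPM, and *Efr3a* was high in SKO186.5 at 155 CPM. The other 4 were low values, *Nsg1* at 0.210 CPM in DKOTu3 and 0.207 CPM in SKO115.2, *Spsb2* at 0.249 CPM in SKO137.1 and *Trbv3* at 2.03 CPM in DKO713. For these *Nsg1* and *Spsb2* values, the other 5 lines of the group had 0 CPM. Any reads in 1 line are then flagged, so the rate of 1 in 20 does not apply to those groups.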

How the results depend on the processing

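With all lines the count of called genes was 0 and became 1 with edgeR, 1 without a variance trend, 6 with array weights, 79 with DESeq2 and 2 at an adjusted p under 0.05. Leaving out single lines gave 0 to 8 called genes, with 8 without DKO102.4, 3 without SKO132 and 1 without DKOTu3. The edgeR call was *Pls3*, at 0 CPM in DKO102.4, 8.74 CPM in DKO170.2 and 43.3 CPM in SKO132. Without SKO132, the count of 3 became 1 with a pseudocount of 2, 1 with a minimum mean of 1 CPM, 1 with edgeR and 8 at 0.05. With DKO lines alone, 0 became 1 at 0.05. The genes with unequal differences (51 in each direction) became 57 with a pseudocount of 0.1 (49 higher, 8 lower), 38 with edgeR (33 higher, 5 lower) and 273 at 0.05. With a pseudocount of 2 they were 128 (48 higher, 80 lower), with a minimum mean of 1 CPM 83 (48 higher, 35 lower), and after the length correction 103 (61 higher, 42 lower). The 172 genes without overlap ranged from 174 to 821 when single lines were left out, and median-of-ratios scaling gave 165 (83 higher, 82 lower). For 9 single genes, scored on the fit with all lines, 236 of 249 settings left direction and side of the 0.01 threshold in place. None of the 9 genes was called at 0.01 in that fit, so the side left in place was uncalled. Another 13 settings brought a call and 0 reversed the direction, and the cause of the changes was not tested. Single genes were not scored in this way for the fit without SKO132. No paired analysis was possible because line numbers are not shared between genotypes. DKO79.9, with the fewest reads, limits what can be detected at low levels.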
